A study of Mus musculus with 18 samples.

Results

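10 genes of the Myc and Max network were followed in KDM2A and H3K36me2 ChIP-seq of mouse splenic B cells, namely Myc, Max, Mga, Mnt, Mxd1, Mxd3, Mxd4, Mxi1, Mlx and Mlxip. They were taken by symbol from GENCODE M21 on GRCm38, and all 10 of the 10 symbols were found among 21924 protein-coding genes. The WT group held B cells of C57BL/6 mice with an intact Mir155 gene, and the KO group held B cells of mice on that background lacking Mir155 in every cell of the animal. Cells of both groups were enriched from spleen by removal of CD43, Ter119 and CD4 positive cells and were kept for 2 days in 1% O2 and 5% CO2. Both groups received anti-CD40 at 1 µg/ml, F(ab')2 anti-IgM at 5 µg/ml and IL-4 at 4 ng/ml. Each genotype had 3 KDM2A and 3 H3K36me2 libraries, of which replicate 1 was male and replicates 2 and 3 were female. The mice of the study were 6 to 25 weeks old, without an age for each library. Nothing in the sources used here said whether a library held 1 animal or a pool, so p-values measure the spread between these libraries alone.

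Myc forms a dimer with Max that binds the E-box CACGTG and activates genes of growth, ribosome assembly and metabolism. Mnt, the Mxd proteins and Mxi1 also pair with Max and recruit Sin3 repressors to E-boxes, so Max is shared by activators and repressors. Mga pairs with Max in a variant Polycomb complex, PRC1.6, while Mlx pairs with Mlxip (MondoA) in a branch of the network that senses glucose metabolites. KDM2A is a demethylase of dimethylated lysine 36 of histone H3 (H3K36me2), and its CXXC zinc finger binds unmethylated CpG dinucleotides, which gather in CpG islands at promoters. In germinal centres Myc marks positively selected B cells, and miR-155 is a microRNA of the same cells. The comparison asked whether KDM2A and the histone mark it removes lay differently over these genes in WT and KO cells.

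RefSeq promoters on GRCm38.p6, each running from 250 bases before to 50 bases after a start, matched 9 of the 10 genes and gave 11 sequences. Myc had no entry, so what follows on E-boxes, CpG and bases under peaks in these sequences leaves it out. They are printed 5′ to 3′ on the strand of the gene, with CpG dinucleotides, the bases KDM2A can recognise, in capitals. The first 4 are shown because each holds the E-box CACGTG once, which reads caCGtg here and equals its own reverse complement. The Mlx promoter is chr11:101087040-101087339 on the plus strand, that of Max chr12:76962199-76962498 on the minus strand, that of Mnt chr11:74830674-74830973 on the plus strand and that of Mxd4 chr5:34187661-34187960 on the minus strand.
Mlx: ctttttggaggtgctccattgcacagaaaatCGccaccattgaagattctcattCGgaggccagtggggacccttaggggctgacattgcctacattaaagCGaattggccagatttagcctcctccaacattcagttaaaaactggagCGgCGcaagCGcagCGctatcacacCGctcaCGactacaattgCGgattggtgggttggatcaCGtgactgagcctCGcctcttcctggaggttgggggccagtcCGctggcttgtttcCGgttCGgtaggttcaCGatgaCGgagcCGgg
Max: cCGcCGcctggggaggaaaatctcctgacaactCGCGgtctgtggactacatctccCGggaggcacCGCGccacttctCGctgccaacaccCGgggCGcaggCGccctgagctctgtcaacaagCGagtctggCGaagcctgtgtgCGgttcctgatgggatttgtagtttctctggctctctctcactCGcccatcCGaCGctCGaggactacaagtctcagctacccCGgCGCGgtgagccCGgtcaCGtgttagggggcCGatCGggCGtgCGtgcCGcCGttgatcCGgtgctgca
Mnt: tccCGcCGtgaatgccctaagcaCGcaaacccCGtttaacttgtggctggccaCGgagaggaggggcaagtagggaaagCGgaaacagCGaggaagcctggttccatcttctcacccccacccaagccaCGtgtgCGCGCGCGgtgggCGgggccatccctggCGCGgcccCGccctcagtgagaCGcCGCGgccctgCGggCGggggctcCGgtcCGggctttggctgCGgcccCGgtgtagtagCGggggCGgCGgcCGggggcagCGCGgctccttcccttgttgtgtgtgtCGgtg
Mxd4: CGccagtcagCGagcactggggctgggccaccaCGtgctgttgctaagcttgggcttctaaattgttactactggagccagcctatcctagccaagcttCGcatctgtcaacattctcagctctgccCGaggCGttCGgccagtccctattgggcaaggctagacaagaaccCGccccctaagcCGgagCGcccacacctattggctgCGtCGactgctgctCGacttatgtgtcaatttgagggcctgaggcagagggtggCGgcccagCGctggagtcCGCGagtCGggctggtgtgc
Counted from the start, the first base of the E-box was at −40 in Mlx, −3 in Max, −123 in Mnt and −219 in Mxd4. CACGTG was in 8.03% of 20150 promoters of protein-coding genes in the same table and in 4 of the 11 sequences here. A match of letters describes the sequence only. The last 2 sequences are shown as the Mxi1 promoters with the fewest and the most CpG. The upstream one is chr19:53310256-53310555 and the internal one chr19:53329445-53329744, both on the plus strand.
Mxi1 upstream: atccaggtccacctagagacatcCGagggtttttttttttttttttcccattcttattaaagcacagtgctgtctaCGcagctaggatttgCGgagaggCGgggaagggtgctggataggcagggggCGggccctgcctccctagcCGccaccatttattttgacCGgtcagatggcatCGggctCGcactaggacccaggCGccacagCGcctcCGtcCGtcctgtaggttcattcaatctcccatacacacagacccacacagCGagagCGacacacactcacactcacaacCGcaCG
Mxi1 internal: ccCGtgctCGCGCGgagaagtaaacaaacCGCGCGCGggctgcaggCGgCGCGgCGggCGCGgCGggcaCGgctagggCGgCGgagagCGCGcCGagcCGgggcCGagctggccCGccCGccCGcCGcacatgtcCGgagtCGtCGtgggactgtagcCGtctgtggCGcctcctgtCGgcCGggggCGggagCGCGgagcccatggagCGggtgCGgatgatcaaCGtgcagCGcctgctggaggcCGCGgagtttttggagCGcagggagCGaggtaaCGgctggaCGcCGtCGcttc
The upstream Mxi1 sequence held 17 CpG and the internal one 49, while a second internal promoter, chr19:53329163-53329462, held 21. The 11 promoters held between 17 and 49 CpG with a median of 25, beside a median of 14 over promoters of protein-coding genes. KDM2A peaks lay over all 300 bases in every library at Mxd4, Mlxip, Mxd1, Mnt and Mxd3. They covered 252 to 300 bases at Max, 178 to 300 at Mlx and 94 to 300 at Mga. At the upstream Mxi1 promoter they covered 0 to 210 bases, with a peak there in 1 WT and 2 KO libraries, and at both internal ones 0 to 300 bases, with a peak in 3 WT and 2 KO libraries.

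Each of the 10 genes carried KDM2A at its promoter. All 10 had a KDM2A peak within 2 kb of an annotated start in all 6 libraries, beside 26.4% of all protein-coding genes and 42.0% of those with a CpG island in such a window. A peak in at least 2 of 3 libraries of both genotypes, the rule the study used for bound regions, was likewise met by 10 of 10 and by 39.4% of protein-coding genes. All 10 genes have an island at their upstream start, so 42.0% is the closer share. These counts use every deposited peak. With only peaks at a −log10 q of at least 2, 2405 protein-coding genes rather than 5791 had a promoter peak in all 6 libraries. Windows with a peak in all 6 libraries had an island, and not every start of a gene lay in such a window. Overlapping windows were joined, which gave 23, and the 10 upstream windows, each with an island, held KDM2A in all 6 libraries. Of the 2 internal windows with an island, that of Mnt held it in all 6 libraries and that of Mxi1 in 3 WT and 2 KO libraries. Of the 11 internal windows without an island, none held it in all 6 libraries and 7 held it in no library. At Mga (chr2:119897228-119969581, plus strand) the 4 internal windows have no island and held no KDM2A peak in any library. Every upstream window has an island and 11 internal windows have none, so island and upstream position can hardly be told apart here.

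**Figure D1:**
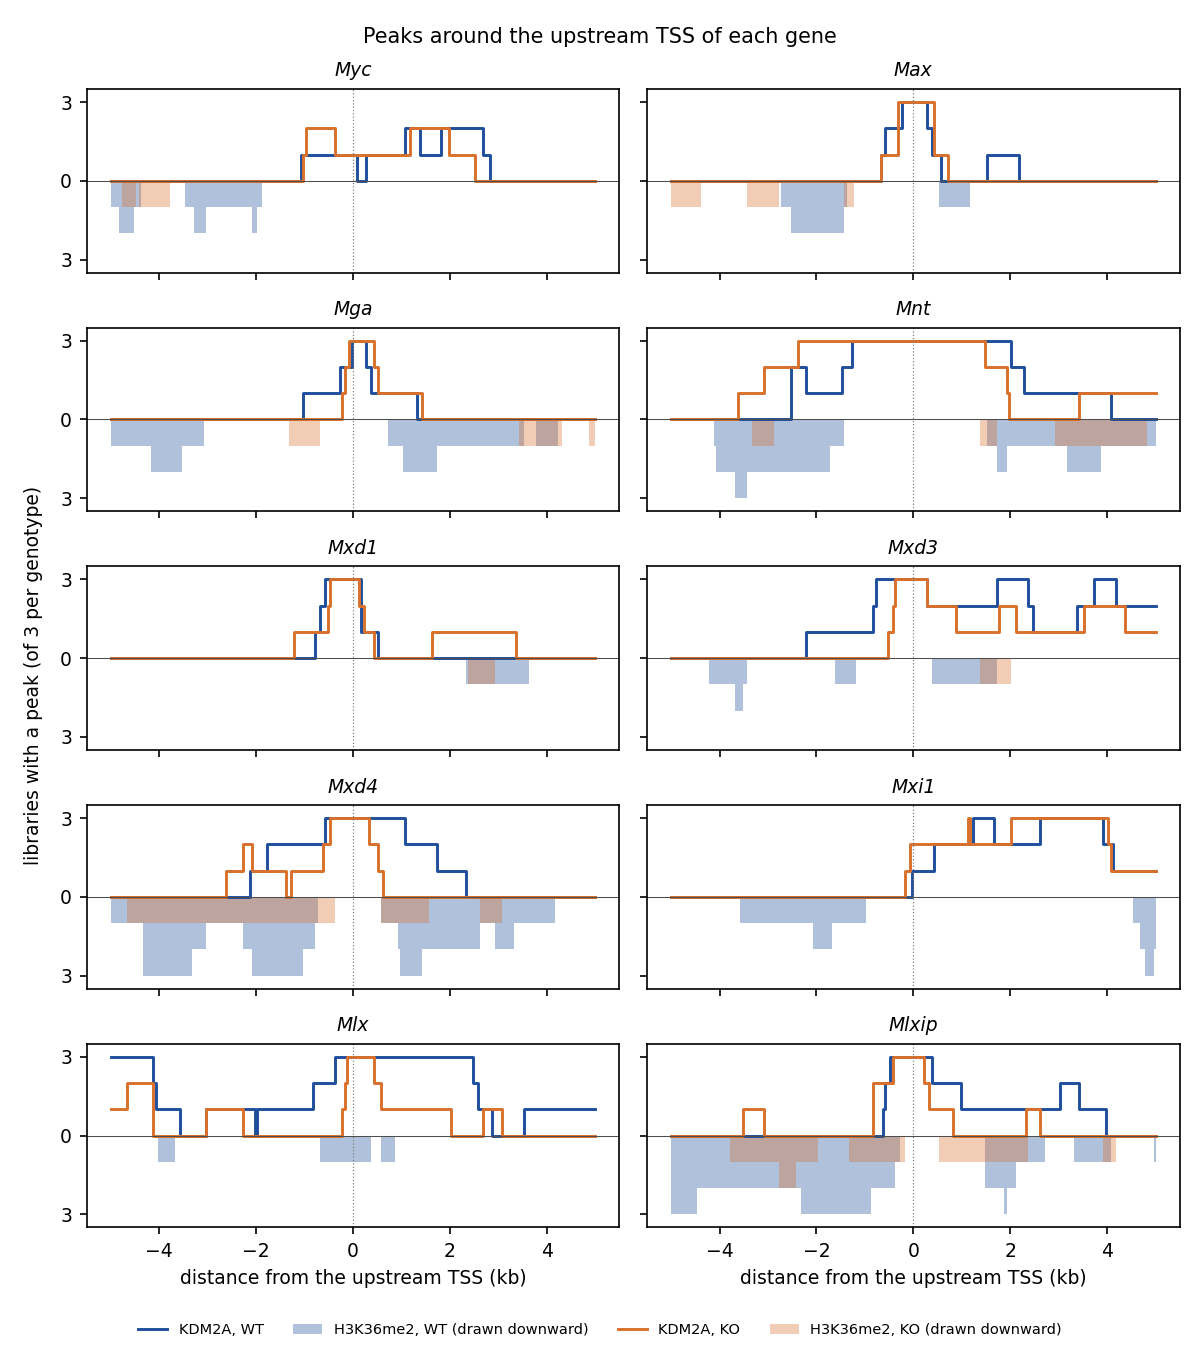
Number of libraries (of 3 per genotype) with a peak at each distance in kb from the most upstream start, for KDM2A as lines drawn upward and H3K36me2 as filled areas drawn downward, WT in blue and KO in orange. KDM2A reaches 3 of 3 libraries over the start in both genotypes at 8 genes, whereas at Myc the peaks of different libraries lie on different sides of it and at Mxi1 they lie over it or downstream.

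The exact place of the KDM2A peak separated Myc and Mxi1 from the other 8 genes, where a peak lay over the most upstream start in all 6 libraries. At Myc (chr15:61985391-61990374, plus strand) a peak lay over the start in WT replicate 1 and KO replicate 1 only. In WT replicates 2 and 3 the nearest peak began 272 and 1818 bases downstream, in KO replicate 2 it began 1155 bases downstream, and in KO replicate 3 it ended 390 bases upstream. The 6 annotated starts of Myc lie within 1 window of 6032 bases, with an island of 3210 bases. KDM2A was called within that window each time, but not at 1 shared position. At Mxi1 (chr19:53310518-53375810, plus strand), which encodes a Max partner of the repressor branch, a peak lay over the start in 3 of 6 libraries and began within 1239 bases downstream in the others.

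The strength of the KDM2A peak, given as the fold of ChIP over the control background of the same library, was modest at all 10 genes. The geometric mean over 6 libraries was 3.48 at Mxd3, 3.47 at Mnt, 3.24 at Mxi1, 3.20 at Mxd1 and 3.14 at Mlxip. It was 3.00 at Mxd4, 2.97 at Mlx, 2.93 at Max, 2.85 at Mga and 2.64 at Myc. The ranges of every pair of neighbours in this order overlapped over the 6 libraries. Myc, the activator, was lowest, with folds of 2.53, 2.77 and 2.56 in WT and 2.76, 2.55 and 2.68 in KO. All 6 lay below the lowest library of Mxd3, 2.86, of Mxi1, 2.92, and of Mnt, 3.07. Each also lay below the median fold of all KDM2A peaks of its own library, which ran from 2.61 to 2.87. Among 5791 protein-coding genes with a promoter peak in all 6 libraries, the fold of Myc stood at the 0.553 percentile and that of Mxd3 at the 90.0 percentile. Myc was not low in extent. On average 27.2% of its promoter window lay under KDM2A peaks, which placed it at the 86.0 percentile of 12281 genes. Mnt, the widely expressed Max partner that opposes Myc, had the widest coverage, 72.5%, followed by Mxd3 with 54.9% and Mlx with 41.3%. Mga, whose window of 22941 bases is mostly internal, had 4.47%. A gene with more or longer windows has more room for a strong peak and a lower percent, so these levels are not free of gene structure.

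**Figure D2:**
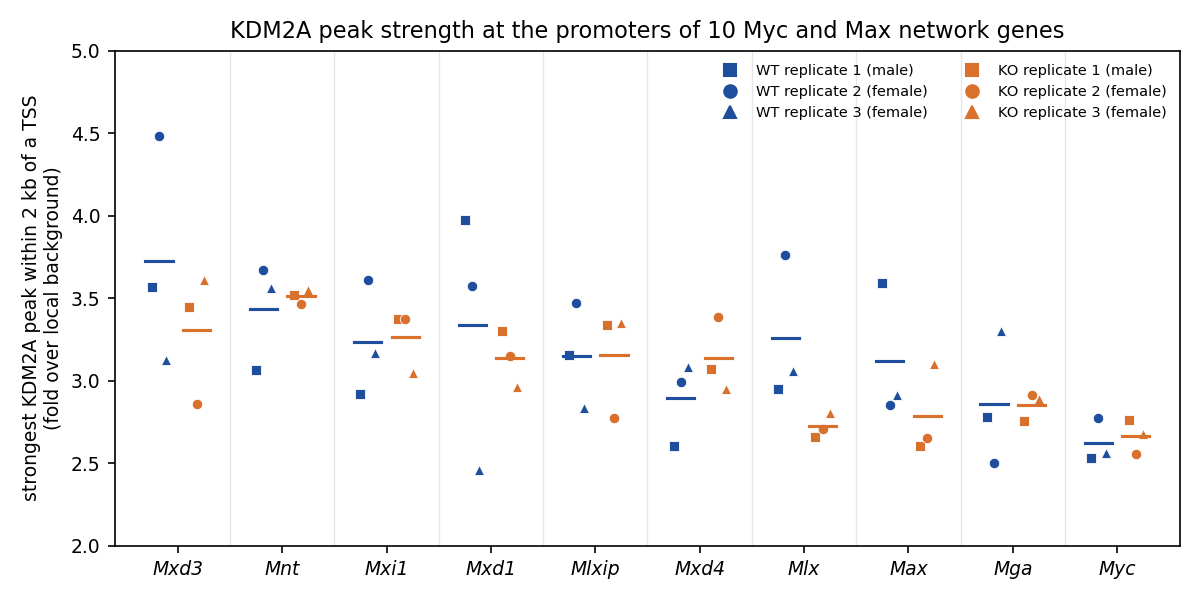
Fold over background of the strongest KDM2A peak within 2 kb of a start, 1 point per library, WT in blue and KO in orange, with shapes for the replicate and lines for the group mean; the axis starts at 2. At Mlx the 3 KO libraries lie below the 3 WT libraries, and at the other genes the genotypes overlap on this scale.

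Peak strength did not differ between genotypes by a tested amount at any of the 10 genes. With limma on log2 folds, each library centred on its median gene, 0 of 5791 genes passed an adjusted p of 0.05 (0.0%), and 305 had an unadjusted p under 0.05. The 10 genes had adjusted p-values from 0.906 to 1.00. Of the differences, KO minus WT, 7 were above 0 and 3 below, with a median of 0.07 beside 0.00 over all genes tested. Mlx, which pairs with Mlxip, had folds of 2.95, 3.76 and 3.06 in WT and of 2.66, 2.71 and 2.81 in KO. Every KO library of Mlx was thus below every WT library, before and after centring, and the centred difference was −0.19 on the log2 scale (SE 0.10, n = 3 each, limma adjusted p = 0.906). Mlx was the one gene of 10 with that order on either scale, beside 5.21% of genes tested after centring and 10.3% before. Myc and Mnt had every KO value above every WT value, but after centring only, and by a small gap, beside 5.27% of genes tested. For Mnt the highest centred WT value was 0.19 and the lowest KO value 0.21, and for Myc these were −0.25 and −0.22. Max, the shared partner, had 3.59, 2.85 and 2.91 in WT and 2.60, 2.65 and 3.10 in KO, a difference of −0.10 (SE 0.12, limma adjusted p = 0.946).

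The extent of KDM2A was smaller in KO at Mlx and Mxd4 in every library, without passing the test. At Mlx (chr11:101087277-101092207, plus strand) 84.4%, 50.5% and 51.2% of the promoter window lay under peaks in WT and 18.7%, 9.60% and 33.5% in KO. The difference was −41.5 percentage points (SE 12.5, limma adjusted p = 0.541). The peak over the Mlx start was 3226 to 4542 bases wide in WT and 613 to 2137 in KO. In WT it reached 2460 to 2857 bases downstream, and in KO 431 to 2021 bases. At Mxd4 (chr5:34173883-34187720, minus strand), a Max partner of quiescent and differentiating cells, the WT libraries had a coverage of 25.3%, 32.6% and 27.3% and the KO libraries of 9.98%, 14.0% and 17.4%. That difference was −14.6 points (SE 5.62, limma adjusted p = 0.638). The peak over its start was 2869 to 3806 bases wide in WT and 1126 to 1589 in KO. At both genes width is part of the coverage just given and not a separate result. How many other genes differ so in width was not computed.

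Those 2 genes of 10 with lower values in every KO library stand beside 12.5% of 12281 genes, and 0 of 10 with higher values beside 1.18%. The median difference was −2.08 points over the 10 genes and −2.87 over all genes tested, of which limma called 0 (0.0%), with 947 at an unadjusted p under 0.05, Mlx and Mxd4 among them. The KO lists also held fewer KDM2A peaks, 15387 to 21705 against 23372 to 29105 in WT, and covered 0.433% to 0.715% of the genome against 0.770% to 1.11%. Divided by that share, coverage remained lower in every KO library at Mlx, the Mxd4 groups overlapped, and Mnt, Mxd1 and Mxi1 were higher in every KO library. On that scale 3.40% of all genes tested were lower in every KO library and 10.2% were higher. Read depth was unknown, and its part in the result was not tested.

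Mxd3, expressed in proliferating cells, had the largest other difference, with 98.3%, 40.4% and 72.2% in WT and 56.1%, 18.1% and 44.5% in KO. The genotypes overlapped there, and the difference was −30.7 points (SE 16.8, limma adjusted p = 0.648). Mnt lay in both genotypes at the high end, at 80.5%, 49.8% and 81.5% for WT and 70.5%, 53.2% and 99.4% for KO. The WT libraries of Myc had 23.9%, 39.9% and 16.8%, and its KO libraries had 49.1%, 9.33% and 23.9%. The KO libraries of Myc held both the highest and the lowest value, and the difference was 0.57 points (SE 11.8, limma adjusted p = 0.989). The remaining 5 genes, Max, Mga, Mxd1, Mxi1 and Mlxip, differed by −6.10 to 5.30 points with overlapping groups.

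Over the gene from start to end, KDM2A coverage was lower in every KO library at Mlx, Mxd4 and Mlxip, 3 of 10 genes beside 16.7% of 9506 genes with a mean coverage of at least 1%. None of the 10 was higher in every KO library, beside 1.02%. This measure overlaps the promoter windows and was given no test. At Mlxip the WT libraries had 7.07%, 5.06% and 7.65% of the gene under peaks, and the KO libraries 3.39%, 2.11% and 2.37%. Its promoter windows, at 21.9%, 15.8% and 14.3% for WT and 8.87%, 8.11% and 16.8% for KO, overlapped between genotypes.

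**Figure D3:**
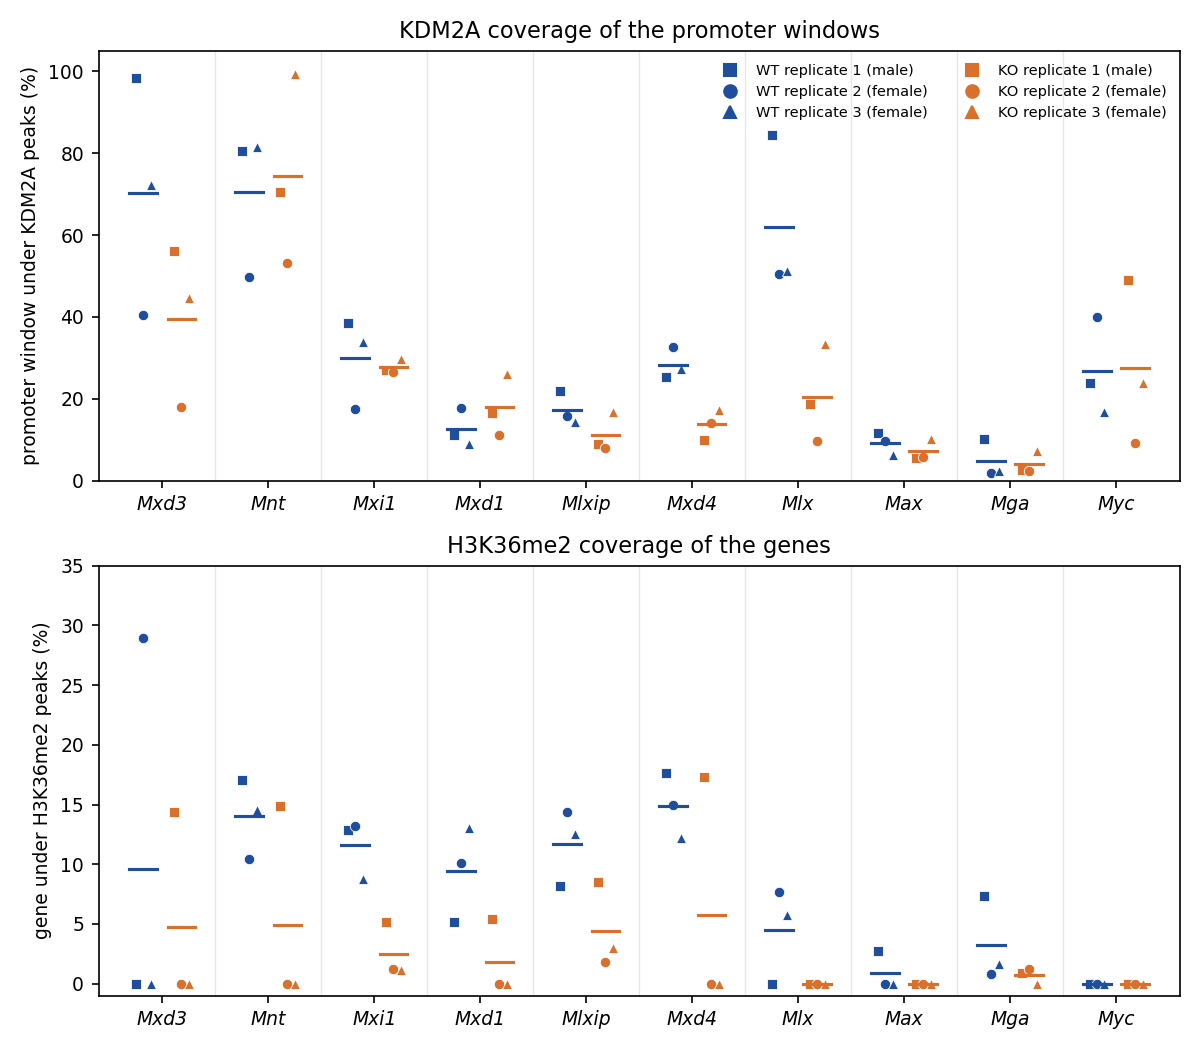
Percent of the promoter windows under KDM2A peaks (top) and percent of the gene from start to end under H3K36me2 peaks (bottom), 1 point per library with lines for the group mean, WT in blue and KO in orange. KDM2A coverage is lower in all KO libraries at Mlx and Mxd4, and H3K36me2 coverage in KO replicates 2 and 3 is 0 at most genes.

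H3K36me2, a mark of gene bodies and intergenic chromatin, covered up to a mean of 14.9% of a gene of the network in WT, at Mxd4, and none of Myc. No library of either genotype had an H3K36me2 peak over Myc, a state shared by 41.9% of protein-coding genes. The nearest peak to the Myc start lay 1.87 to 21.9 kb away. Max, in 24933 bases, had a peak in WT replicate 1 alone, over 2.75% of the gene. Mxd4 was covered most, with 17.6%, 14.9% and 12.2% in WT, and Mnt had 17.1%, 10.4% and 14.6%. Against all protein-coding genes, the WT means of Mxd4, Mnt, Mlxip and Mxi1 stood at the 86.4, 85.5, 82.8 and 82.7 percentiles. The mean over the 10 genes was 7.10%, 10.0% and 6.84% in the WT libraries, beside 5.52%, 6.50% and 6.54% over all genes. At the starts the mark was in some library at 9 of 10 upstream windows, Mxd1 being the exception, but it lay over the most upstream start only at Mlx, in 1 library.

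In the promoter windows, 7, 8 and 7 of the 10 genes had an H3K36me2 peak in the WT libraries and 6, 1 and 0 in the KO libraries. The same windows held one at 39.2%, 40.5% and 41.4% of all genes in WT and at 38.6%, 16.1% and 17.7% in KO. Coverage of the windows was lower in every KO library at Max and Mxi1, 2 of the 8 genes with a mean of at least 1%, beside 21.3% of 11406 genes. None was higher in every KO library, beside 0.254%, and no test was fitted to this measure. At Max the WT libraries had 5.07%, 4.70% and 4.42% and the KO libraries 1.38%, 0% and 0%. At Mxi1 they had 9.53%, 3.69% and 2.65%, and no KO library had a peak. KDM2A and H3K36me2 libraries were also compared by genotype and number, which the sources do not tie to 1 animal. Of the KDM2A-covered bases of the 10 genes and their windows, 6.51% to 10.9% were also under H3K36me2 in WT and 0% to 4.84% in KO. The H3K36me2-covered bases there numbered 25961 to 30838 in WT and 18717, 3995 and 2664 in KO.

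The KO libraries did not look alike. KO replicate 1 had H3K36me2 over 7 of the 10 genes, as many as WT replicates 1 and 3, whereas KO replicates 2 and 3 had it over 3 and 2. Of the 6 genes with a peak in all 3 WT libraries, Mga, Mnt, Mxd1, Mxd4, Mxi1 and Mlxip, KO replicate 1 kept all 6, beside 93.2% of such genes. In KO replicates 2 or 3 only Mga, Mlxip and Mxi1 had one, beside 74.4%. The lists of those 2 libraries were short as a whole, with 37447 and 45180 peaks against 85387 to 106720 in the other 4. They were the female KO libraries, KO replicate 1 was the male one, and with 1 male library per genotype sex and library cannot be told apart. In these bulk samples, fewer cells with the mark and less of it per cell also cannot be told apart.

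At Mxi1 the mark was lower in every KO library. It covered 12.9%, 13.2% and 8.78% of the gene in WT and 5.13%, 1.24% and 1.15% in KO. The difference was −9.10 percentage points (SE 3.26, n = 3 each, limma adjusted p = 0.253). Leaving out 1 library at a time, the difference ran from −10.5 to −8.31 points and the limma adjusted p from 0.0932 to 0.591. Its strongest H3K36me2 peak had folds of 3.49, 2.99 and 3.09 in WT and 2.97, 2.88 and 2.70 in KO, a centred log2 difference of −0.19 (SE 0.07, limma adjusted p = 0.861). Mxi1 was the one gene of 8 tested with coverage lower in every KO library, beside 28.7% of 9791 genes, or 10.2% once coverage was divided by the share of genome under peaks, and 0 of 8 were higher in every KO library, beside 0.0919%. For the fold, 2 genes had a peak in all 6 libraries. Mxi1 was lower without overlap, beside 6.14% of 3257 genes after centring, 0.921% before it and 11.1% by percentile rank, and neither was higher after centring, beside 5.74%. At Mlxip, the other one, the fold difference was 0.03 (SE 0.07, limma adjusted p = 0.987).

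All 8 genes tested had a coverage difference below 0, as had 91.4% of all genes tested. When divided by the share of genome covered they stayed below 0, as did 69.6% of genes. Their median was −7.43 points beside −5.24 over all genes. Mxd1 had 5.15%, 10.1% and 13.0% in WT and 5.43%, 0% and 0% in KO, a difference of −7.62 points (SE 3.30, limma adjusted p = 0.258). Mlxip, the partner of Mlx, had 8.15%, 14.4% and 12.5% in WT and 8.51%, 1.79% and 3.03% in KO. In both genes KO replicate 1 lay within the WT range and KO replicates 2 and 3 below it. Mxd4 and Mnt had the same order, with 17.3%, 0% and 0% and with 14.8%, 0% and 0% in KO. Mxd3 had a peak in WT replicate 2 and KO replicate 1 only, over 28.9% and 14.4% of the gene. limma called 0 genes for coverage (0.0%) and 0 for fold (0.0%), with 1896 and 182 at an unadjusted p under 0.05, Mxi1 among both, and adjusted p-values for coverage at the 8 genes ran from 0.253 to 0.655.

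**Figure D4:**
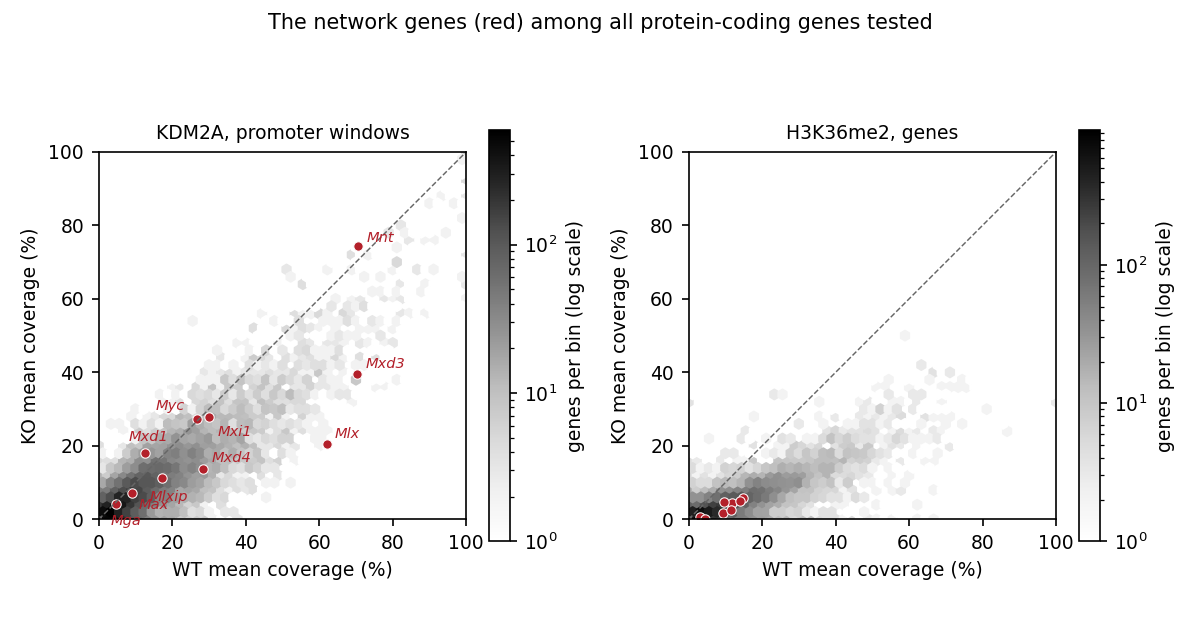
Mean coverage in KO against WT for KDM2A over promoter windows (left) and H3K36me2 over genes (right), grey bins for the number of protein-coding genes tested on a log scale, red points for the network genes, dashed line for equal values. Mlx and Mxd3 lie below the line on the left and Mnt just above it, and on the right the 8 genes tested lie below it, as do 91.4% of all genes.

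The study's rule for KDM2A regions was applied to intervals merged over the 6 lists. Where both genotypes had a peak in at least 2 libraries, WT-enriched meant a WT mean fold over 3 that was more than 2 to the power 0.23 times the KO mean. Where WT alone had, a WT mean fold over 3 was enough, and KO-enriched was the reverse in both cases. Of 16511 intervals, 15 had a network gene as the nearest, and these split into 11 shared by the genotypes, 2 bound in WT alone and 2 in KO alone. The rule made 2 of them WT-enriched, beside 9.14% of all intervals, and 0 KO-enriched, beside 1.91%. The first was the promoter interval of Mlx, chr11:101085289-101090374, whose mean fold was 3.26 for WT and 2.73 for KO. This call was lost without WT replicate 2, and 1 interval then remained. The second, chr5:123381612-123383018, had its middle 12483 bases upstream of Mlxip, outside the promoter windows, with a mean fold for WT of 3.37 and for KO of 2.65. The intervals over Myc and Max were bound in all 6 libraries and met neither rule, the mean folds for WT and KO being 2.62 and 2.66 at Myc and 3.07 and 2.79 at Max.

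Other genes of the pathway were read from lists, and counts of promoter peaks there stand beside 26.4% of protein-coding genes and 42.0% of those with an island. Of 3 further family members, Mycl had promoter KDM2A in all 6 libraries, with a coverage of 16.9% ± 6.28 for WT and 10.3% ± 7.01 for KO (SD over 3 libraries), Mlxipl had 5.16% ± 1.93 and 1.16% ± 2.00 with a peak in 4 libraries, and Mycn had none in any library. Among 20 cofactors and turnover factors of Myc, 13 had a promoter peak in all 6 libraries. Pim1, a kinase that stabilises Myc, had 92.2% ± 3.98 in WT and 64.1% ± 18.0 in KO, and Kat5, an acetyltransferase of the Myc coactivator complex, 55.8% ± 13.3 and 37.7% ± 13.2. Of the 9 partners of Mga in PRC1.6, 4 had such peaks, and Ring1, its ubiquitin ligase, had 79.4% ± 0.339 in WT and 89.1% ± 18.9 in KO. Of 20 well-known Myc targets 16 did, among them Cdk4, with 57.6% ± 31.0 in WT and 30.5% ± 14.2 in KO. Of the 3 targets of the Mlx branch 1 did, Txnip, an inhibitor of glucose uptake, with 72.7% ± 23.2 and 65.5% ± 9.49. In these 5 lists limma called 0 genes in either direction for KDM2A fold, KDM2A coverage and H3K36me2 coverage. The median coverage difference for KDM2A was −7.51 points over the 20 Myc targets, 17 of which were below 0, and −3.32 over the 20 cofactors, 18 of which were below 0. It was 0.94 points over the 8 PRC1.6 partners tested, 5 of which were above 0. Over all 12281 genes tested, the median was −2.87 points and 74.8% were below 0. Once coverage was divided by the share of genome under peaks, 40.3% of all genes were below 0, a scale not applied to these lists.

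Promoter KDM2A was in all 6 libraries at 4 of 5 B cell marker genes and 0 of 8 markers of T, myeloid and erythroid cells, beside 26.4% of protein-coding genes. H3K36me2 was over the gene in some library at 5 of 5 and 5 of 8, and 41.9% of protein-coding genes had none in any library. Peak lists measure no RNA, so these counts do not check which cells were present. By the distance between the 12 coverage values, KDM2A at the promoter and H3K36me2 over the gene in each library, the genes most like Myc were Ly75, B430305J03Rik and Slc35e1, at 18.3, 20.7 and 21.1 percentage points. The windows of 4 genes also hold another start, Gm10197 at Mxi1, Gm47218 at Max, Gm42846 at Mxd4 and Gm15747 at Mlxip, and peaks carry no strand, so a peak there cannot be assigned to either gene.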

How the data were processed

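KDM2A and H3K36me2 ChIP-seq libraries from 18 samples were represented by 12 peak lists, and the 6 input libraries served as the control. Per the study's methods, the authors used BWA for alignment (GRCm38) and MACS2 for broad peaks of each single library. The deposited fold of a peak is a ratio over local control background and is not normalized between libraries. The deposited −log10 q-value was used only for a stricter threshold of 2. No read counts were in the lists, so depth is unknown and no counting interval can be given.

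Genes came from GENCODE M21. Promoter windows were the union of 2 kb either side of every annotated start, and an overlap of 1 base counted. Coverage was the percent of a region under peaks, with genes tested at a mean of at least 1%. limma 3.58.1 in R 4.3.3 (lmFit, eBayes with trend) compared 3 KO with 3 WT libraries over all protein-coding genes, with Benjamini-Hochberg adjustment at 0.05. The fit was first run on simulated normal values. These lack the zeros and bounds of coverage, so that run does not vouch for the coverage tests. The fold was tested as log2, centred on each library's median, for genes with a peak in all 6 libraries. CpG islands were computed from the genome sequence, which gave 17036. Lists and intervals were processed in Python 3.11.15. The alternatives were other windows, thresholds, scalings, libraries left out and the replicate block. The genes and lists were chosen with earlier results of these data known, and all 10 genes are named. From each further list at most 3 genes were named, those with the highest mean KDM2A promoter coverage. MACS2 and BWA versions were not given in the sources used here.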

Additional observations from a re-analysis of the deposited data

Results flagged for a closer look

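For the KDM2A promoter fold, the H3K36me2 gene fold and the coverage of promoters and genes by both antibodies, 8 values were found in which the male KO library differed from the male WT library in one direction, and both female KO libraries from both female WT libraries in the other. These were 8 of 48 values examined for the 10 genes, and 16.2% of all values examined over protein-coding genes showed the same pattern. With 1 male library per genotype these differences between sexes were not tested. For Mnt, the KDM2A fold as deposited was 0.454 higher in the male KO than in the male WT library, and the mean female difference was −0.108, while after centring every KO library lay above every WT library. For Mga, KDM2A promoter coverage was −7.49 percentage points different in the male pair and 2.68 points in the female libraries. H3K36me2 coverage of Mxd1 differed by 0.276 points in the male pair and by −11.6 points in the female libraries, and that of Mlxip by 0.361 and −11.05 points. H3K36me2 coverage of the promoter windows differed by 3.59 and −26.3 points at Mxd4 and by 2.14 and −13.4 points at Mlxip. KDM2A coverage of the gene differed by 32.0 and −20.7 points at Myc and by −0.744 and 1.05 points at Mga.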

How the results depend on the processing

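Under alternatives other than leaving out 1 library at a time, 197 of 215 differences of single genes kept their sign and 18 did not. None of them was called before or after. These alternatives include female libraries only, which leaves out the male libraries. Without 1 library, 160 of 179 kept it and 19 did not. limma called 1 gene for the H3K36me2 fold by percentile rank and 1 with the replicate block, neither of them among the 10, and 0 under every other alternative run. The block changed no call at the 10 genes. Same-numbered libraries did not deviate together, with correlations from −0.07 to 0.06 across genes, so the numbers were not taken as pairs. For the reversed values, the cause was not tested. With female libraries only, the difference became 0.0843 for the Max KDM2A fold and −11.8, 0.0961, 2.68 and 2.34 percentage points for KDM2A coverage of Myc, Max, Mga and Mxi1. With coverage divided by each list's share of the genome, KDM2A differed by 2.99 for Max, 2.27 for Mga, 20.5 for Mxi1 and 1.18 for Mlxip. A window of 1 kb gave 0.90 points for Max and −1.52 for Mnt, and an equal number of peaks per list gave 1.96 for KDM2A at Max and 1.75 for H3K36me2 at Mlxip. By percentile rank the fold of Mlxip differed by −2.09 for KDM2A and −5.81 for H3K36me2. The Mxd1 fold differed by −0.000802 with peak centres and by −0.0608 uncentred. Outside the promoter windows, H3K36me2 coverage of Mxd4 differed by 2.17 points.

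The number of genes whose groups did not overlap also moved. For a higher KDM2A fold in KO it was 1 with equal peak numbers (5.10% of all genes tested), 1 with the stricter threshold (5.16%), 0 by percentile rank (2.07%) and 0 uncentred (2.12%), and for a lower fold 0 with the stricter threshold (5.61%). For KDM2A coverage divided by the genome share it was 1 lower (3.40%) and 3 higher (10.2%), and 1 was higher in female libraries (7.95%). For lower H3K36me2 coverage it was 0 with the stricter threshold (9.37%), 3 outside the promoter windows (28.1%) and 6 in female libraries (71.5%). WT-enriched intervals numbered 4 with the stricter threshold (27.5% of all intervals) and 4 in female libraries (19.0%).

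Leaving out 1 library at a time, these numbers ran from 2 to 4 for a higher KDM2A fold (10.0% to 11.3% of all genes), from 2 to 4 for lower (16.1% to 23.8%) and from 0 to 1 for higher KDM2A coverage (2.12% to 3.74%), from 1 to 5 for lower H3K36me2 coverage (29.0% to 57.3% of all genes) and from 1 to 4 for WT-enriched intervals (6.44% to 15.7% of all intervals). KDM2A fold differences then ran from −0.19 to 0.0338 for Max, −0.0571 to 0.18 for Mga, −0.0053 to 0.14 for Mlxip, −0.20 to 0.17 for Mxd1 and −0.21 to 0.0071 for Mxd3. KDM2A coverage differences ran from −2.25 to 1.95 for Mga, −8.75 to 14.4 for Mnt, −8.36 to 2.03 for Mxi1 and −10.3 to 9.63 for Myc. H3K36me2 ran from −9.66 to 4.79 points of coverage for Mxd3 and from −0.0129 to 0.0840 in the fold of Mlxip.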
